A study of Homo sapiens with 4 samples.

Results

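Contacts of the ribosomal RNA genes (rDNA) with chromosome 6 were examined in K562 cells, a human leukemia cell line of the erythroleukemia type. The cells were studied without and with treatment with hemin, an iron porphyrin that drives them toward the erythroid lineage. The contacts had been mapped by 4C, in which cross-linked chromatin is cut, joined ends are ligated, and the partners of 1 viewpoint are amplified and sequenced. The viewpoint lay in the intergenic spacer of rDNA, EcoRI made the first cut (GAATTC) and FaeI the second (CATG). Untreated cells gave 2 libraries and cells kept with 50 µM hemin for 108 h gave 2 libraries, which the study's methods call biological replicates without saying whether they came from separate cultures. The libraries held from 19548906 to 34000240 reads, the hemin libraries being the shallower ones.

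The members were all contact regions on chromosome 6 (hg38) whose midpoint lay at least 500 kb from both chromosome ends. A contact region is a stretch covered by reads, with its count of reads. Untreated replicates 1 and 2 held 1838 and 1811 such regions of 50751 and 50221, and hemin replicates 1 and 2 held 2675 and 2856 of 47042 and 49689. Values are given in this order throughout. Together these were 9180 of 197703 regions, with a further 24, 18, 21 and 18 regions lying within 500 kb of an end. Chromosome 6 was chosen because its share of regions was higher after hemin, so all differences between untreated and hemin libraries on it are given as a description and not as tests. That share was 3.62% and 3.61% in untreated and 5.69% and 5.75% in hemin libraries, with means of 3.61% ± 0.0110 and 5.72% ± 0.0434 (SD, n = 2 each). All the region sequences given for chromosome 6 were identical to hg38 in each of the 4 libraries. They may have been written from the reference, so this does not show that the reads themselves matched it.

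Ribosomal RNA genes lie in clusters on the short arms of the 5 acrocentric chromosomes and form the nucleolus, around which pericentromeric heterochromatin of many chromosomes is often found. Alpha satellite is the repeated DNA of human centromeres: a short monomer in tandem, with groups of monomers repeated again as a larger unit. CENP-B is a protein that binds a short motif, the CENP-B box, in part of these monomers. Chromosome 6 also carries the large cluster of replication-dependent histone genes and, next to it, the major histocompatibility complex (MHC), with the HLA genes of antigen presentation. In hg38 the centromere is a modelled sequence, so the order of its repeat copies is that of the model.

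A stretch with the 171-base period of alpha satellite was found in the reference at chr6:58554001-59830000, 1.276 Mb long, with a repeat unit of 3057 bases. It held 71.2% of the difference in region number between the hemin and untreated means (670 of 941 regions). The sequences below are the commonest region sequences at 4 places of this unit, and are shown because the groups differed in which of them they used. They are written 5′ to 3′ on the plus strand, each with 1 of its places in the array (chr6:58557545-58557607, chr6:58556609-58556687, chr6:58556800-58556926 and chr6:58566119-58566152, in this order). Capitals mark GAATTC, the CATG of the second cut and, in position 3, the CENP-B box.
satellite position 1: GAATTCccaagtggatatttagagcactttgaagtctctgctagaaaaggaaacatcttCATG
satellite position 2: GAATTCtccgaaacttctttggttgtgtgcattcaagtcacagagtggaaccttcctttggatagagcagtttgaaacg
satellite position 3: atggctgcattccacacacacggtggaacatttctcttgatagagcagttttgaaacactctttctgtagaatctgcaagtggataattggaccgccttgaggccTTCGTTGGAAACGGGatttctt
satellite position 4: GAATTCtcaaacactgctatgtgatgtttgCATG

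None of these sequences identifies a single place. Position 1 had 360 exact copies in the array, position 2 had 322, position 3 had 320 and position 4 had 59, and none of the 4 had a copy on another chromosome of the reference (1 to 22 and X searched). A read with such a sequence can therefore be assigned to chromosome 6 but not to a copy, and counts of regions inside the array depend on how many copies the aligner used. Other array sequences were not searched for copies elsewhere. Reads are also given as RPM, reads per 1000000 reads of the library outside the acrocentric chromosomes, which carry the rDNA. Only chromosomes 1 to 22 and X entered this count, and most reads of each library fell outside it.

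Outside the array, the strongest region found in both libraries of a group and in neither library of the other was taken in each segment of the chromosome. Of these, 3 are shown with the same capitals, because they stand for contacts seen in 1 condition. Each has 1 copy in hg38 and is written on the plus strand, and that on the long arm is marked as repeat over its whole length.
hemin, short arm, chr6:50446613-50446714: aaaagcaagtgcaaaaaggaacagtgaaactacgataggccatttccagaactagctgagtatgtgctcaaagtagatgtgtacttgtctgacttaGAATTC
hemin, MHC, chr6:32387757-32387939: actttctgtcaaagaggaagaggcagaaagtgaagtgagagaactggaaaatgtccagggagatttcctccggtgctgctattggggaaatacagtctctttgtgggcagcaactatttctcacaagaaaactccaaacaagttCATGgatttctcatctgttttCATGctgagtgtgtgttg
untreated, long arm, chr6:98582393-98582550: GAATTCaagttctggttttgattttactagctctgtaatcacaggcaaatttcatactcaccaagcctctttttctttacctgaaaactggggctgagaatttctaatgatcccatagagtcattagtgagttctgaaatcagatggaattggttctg

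The array of alpha satellite held more regions and more reads after hemin. Its regions numbered 329 and 317 without hemin and 981 and 1005 with it, a ratio of means of 3.07. Its reads numbered 3136 and 3563 against 17576 and 18408. These were 376 and 402 RPM against 3283 and 3241 RPM, a ratio of 8.38. The groups did not overlap, and the replicates of a group differed by far less than the groups.

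The array thus made up 17.9% and 17.5% of the untreated and 36.7% and 35.2% of the hemin regions of the chromosome. By reads its part was much smaller, at 1.15% and 1.25% of the chromosome's reads in untreated and 8.90% and 8.62% in hemin libraries. The choice to set the array apart was made after its values had been seen. Its 3335 EcoRI sites (2614 per Mb, against 282 per Mb over the rest of chromosome 6) fell into 109 distinct sequences of 30 bases.

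**Figure D1:**
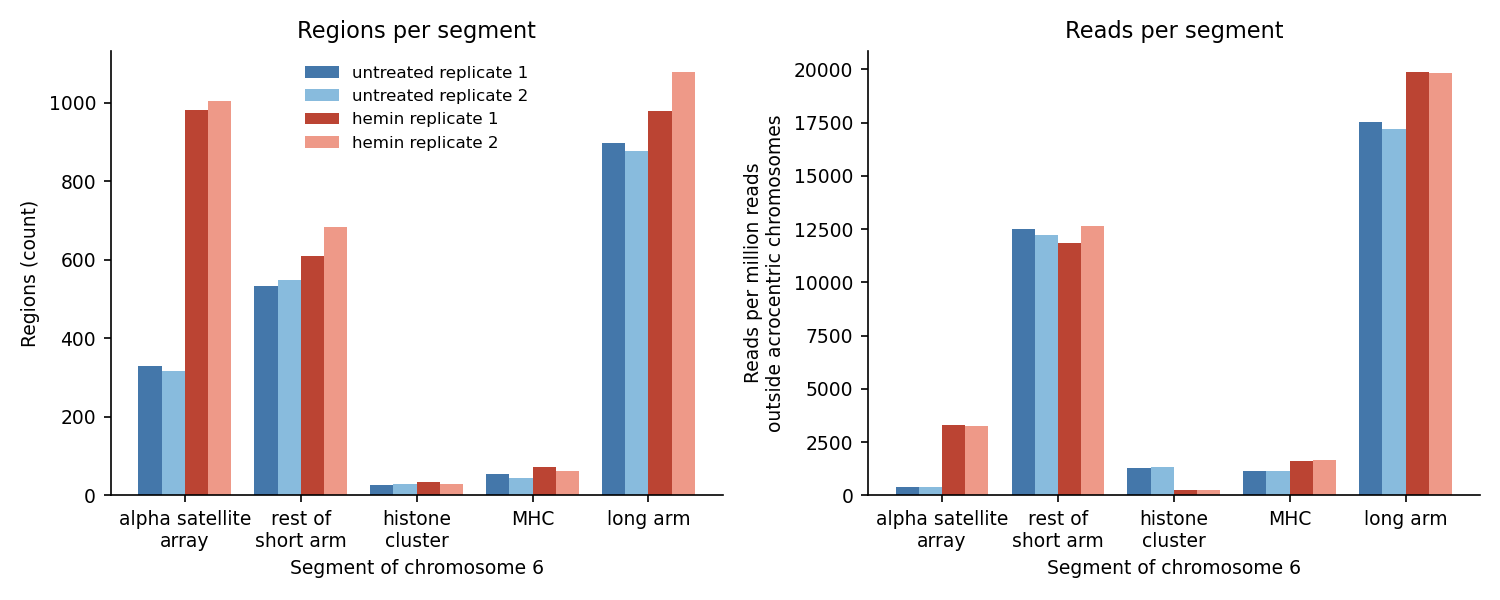
Number of contact regions (left) and reads (right, RPM) in 5 segments of chromosome 6, 1 bar per library and no error bars. The array went from 329 and 317 regions to 981 and 1005, while its reads stayed below those of both arms; the histone cluster held fewer reads in both hemin libraries.

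Positions in the repeat unit differed between the conditions. The unit was divided into 31 steps of 100 bases, counted along the plus strand from a sequence that recurs once per unit, and from 87.6% to 91.7% of the regions that could be placed on it lay in the 5 steps a library used most. Position 1 lay at bases 200 to 299 of the unit and was the main one in untreated cells. It held 262 and 281 RPM there and 59.0 and 83.8 in hemin libraries, with a ratio of hemin to untreated means of 0.263. This single position made up 69.6% and 69.9% of the untreated reads of the array and 1.80% and 2.59% of the hemin reads.

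After hemin the reads lay mainly at other positions of the unit. The units follow each other in tandem, so their numbering has no true ends. Position 2 (bases 2400 to 2499) held 35.9 and 30.8 RPM in untreated and 1305 and 1267 in hemin libraries, a ratio of 38.6. Position 3 (bases 2600 to 2699), where the sequence shown holds no EcoRI site but a CENP-B box, held 11.8 and 10.8 against 1138 and 1118, a ratio of 99.9. Position 4 (bases 2700 to 2799) held 28.7 and 25.5 against 353 and 283, a ratio of 11.7. In these 3 positions both hemin libraries lay above both untreated libraries, and in position 1 below them. The array as a whole therefore held more reads after hemin although its main untreated position held fewer.

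The sequences shown were themselves unequally used. That of position 1 was found as a region at 92 and 95 places in the untreated and at 28 and 29 in the hemin libraries. That of position 2 was found at 6 and 3 places against 150 and 157. The array held 87 and 62 distinct region sequences in the untreated and 277 and 300 in the hemin libraries. Position 5 (bases 2800 to 2899), the last of the 5 that held at least 5% of the placed regions in both libraries of a group, held 88 and 124 reads in untreated and 228 and 215 in hemin libraries.

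**Figure D2:**
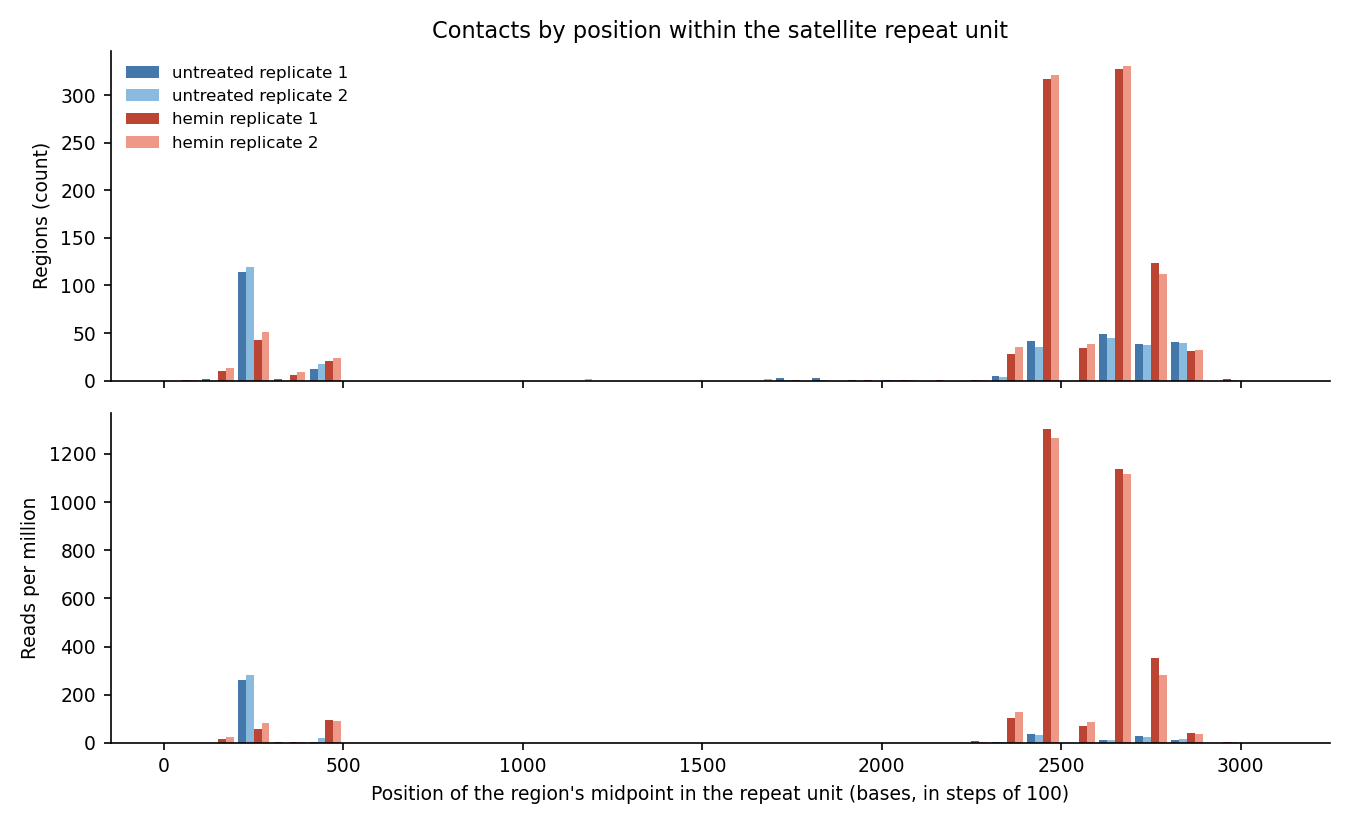
Regions (top, count) and reads (bottom, RPM) by the position of the region's midpoint in the 3057-base repeat unit of the alpha satellite array, in steps of 100 bases, 1 bar per library. Untreated reads peaked at bases 200 to 299 with 262 and 281 RPM, and hemin reads at bases 2400 to 2499 and 2600 to 2699 with 1305 and 1267, and 1138 and 1118.

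The CENP-B box, spelled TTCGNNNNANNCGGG and searched on both strands, occurred 2750 times in the array, or 6.59 times per unit length. It was present in 14.3% and 18.6% of the array regions in untreated libraries (95% Wilson intervals 10.9 to 18.5 and 14.7 to 23.3) and in 36.6% and 36.7% in hemin libraries (33.6 to 39.7 and 33.8 to 39.7). By reads the shares were 3.32% and 4.52% against 37.1% and 37.4%. On chromosome 6 outside the array, 1 or 2 regions of a library held the box. The other non-acrocentric chromosomes, with their alpha satellite kept in, held it in 5.44% and 5.48% of untreated regions. In hemin libraries these shares were 3.18% and 2.88%. They are thus not shares outside satellite sequence. Many array regions were copies of the same sequence, so they are not independent of each other. A match describes the fragment, and binding was not measured.

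By median reads, array regions were shallower than the rest of chromosome 6 in untreated libraries and near it in hemin libraries. Outside the array the median region of the chromosome held 28 and 29 reads in untreated and 19.5 and 18 in hemin libraries. The median array region held 6 and 7 reads in untreated and 18 and 19 in hemin libraries, and the deepest held 127, 121, 157 and 166. In the class of 10 to 100 reads, the array had 121 and 137 regions in untreated and 713 and 732 in hemin libraries. In this class chromosome 6 took 4.04% and 4.23% of all untreated and 8.73% and 8.62% of all hemin regions. Among regions of over 100 reads it took 3.56% and 3.58% against 3.93% and 3.92%, and the array gave at most 3 of these in a library.

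**Figure D3:**
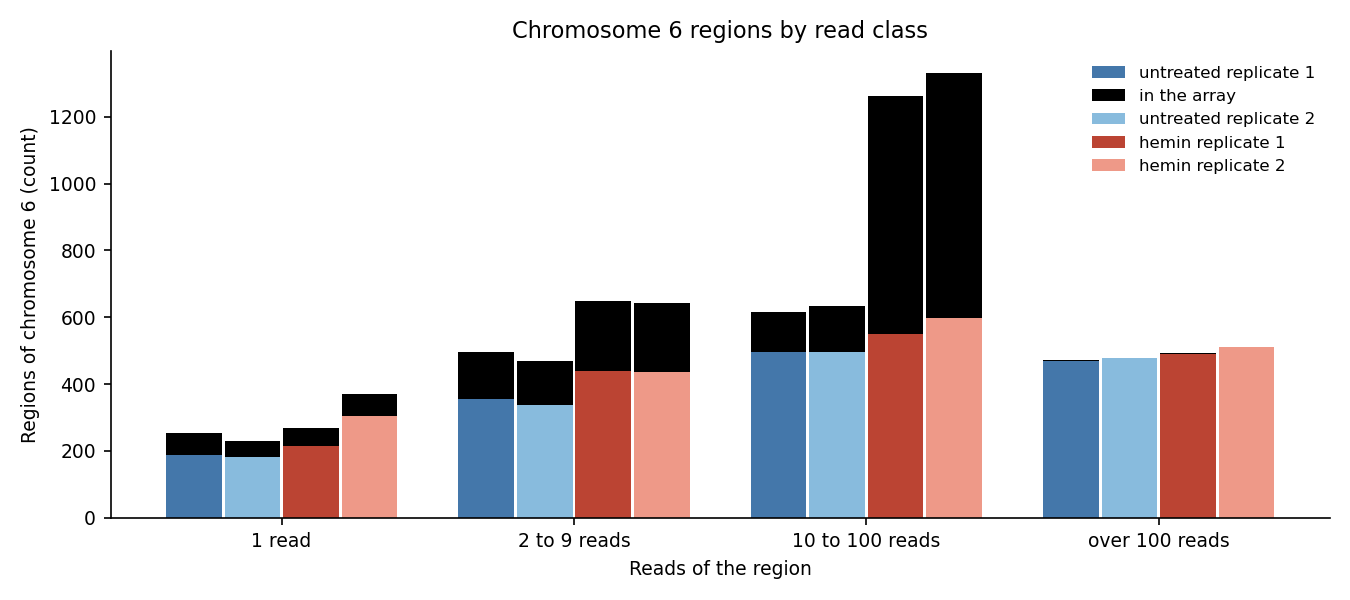
Regions of chromosome 6 by their number of reads, 1 bar per library, with the part in the alpha satellite array in black. The class of 10 to 100 reads held 617 and 634 regions in untreated and 1263 and 1331 in hemin libraries, with the array contributing 713 and 732 of the latter.

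Recurrence was not used to choose the chromosome. A region was called recurring where it overlapped a region of the other library of its group. In the array 48.3% and 49.8% of untreated and 85.4% and 83.2% of hemin regions recurred (95% Wilson intervals 43.0 to 53.7, 44.4 to 55.3, 83.1 to 87.5 and 80.7 to 85.4). The array was more densely filled in hemin libraries. All of its 128 windows of 10 kb held a region there, against 101 and 99 in untreated libraries. Reads in the array cannot be assigned to a copy, so recurrence there follows how many copies the aligner filled. It is therefore no measure of how reproducible a place is, and the intervals treat copies of the same sequence as independent. On chromosome 6 outside the array the share was 75.8% and 76.7% in untreated and 75.4% and 69.2% in hemin libraries. Over the other non-acrocentric chromosomes, with their alpha satellite kept in, it was 71.1%, 72.0%, 72.8% and 68.8%.

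EcoRI sites also set the array apart. A site lay in or within 100 bases of 94.8% and 94.3% of untreated and 96.8% and 95.7% of hemin array regions. Outside the array the share was 49.7% and 50.1% in untreated and 53.1% and 52.5% in hemin libraries. Other non-acrocentric chromosomes, with their alpha satellite kept in, had 54.2% in both untreated and 56.2% and 55.6% in hemin libraries. The density of sites in the array was far above that of the rest of the chromosome, and its part in this difference was not tested.

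Other chromosomes were set beside chromosome 6 with and without such satellite stretches. With all regions, chromosome 6 had the highest ratio of hemin to untreated share among 23 chromosomes (1.58 over its members, 1.58 over the whole chromosome), followed by chromosome 3 with 1.52. The number of regions in satellite stretches was higher in hemin libraries by a ratio of 3.03 on chromosome 6 and 2.75 on chromosome 3, and by 1.18 on chromosome 8, where a library held at most 13. The others had fewer regions, as chromosome 10 with a mean of 1571.5 in untreated and 805.5 in hemin libraries. Reads in satellite stretches went otherwise. Their RPM ratio was 6.94 on chromosome 6, 2.10 on X, 1.73 on 3, 1.655 on 9, 1.46 on 18 and 1.30 on 16. It was 1.05 on 12 and 1.02 on 17, and the remaining chromosomes had lower RPM there in hemin libraries. With all satellite stretches left out of every chromosome, chromosome 6 held 3.74% and 3.73% of untreated and 4.13% and 4.29% of hemin regions. This ratio of 1.13 was lower than those of 6 other chromosomes, chromosome 11 being first with 1.33. Hence, outside satellite sequence the share on chromosome 6 was still higher in both hemin libraries, but by an amount that several chromosomes exceeded.

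**Figure D4:**
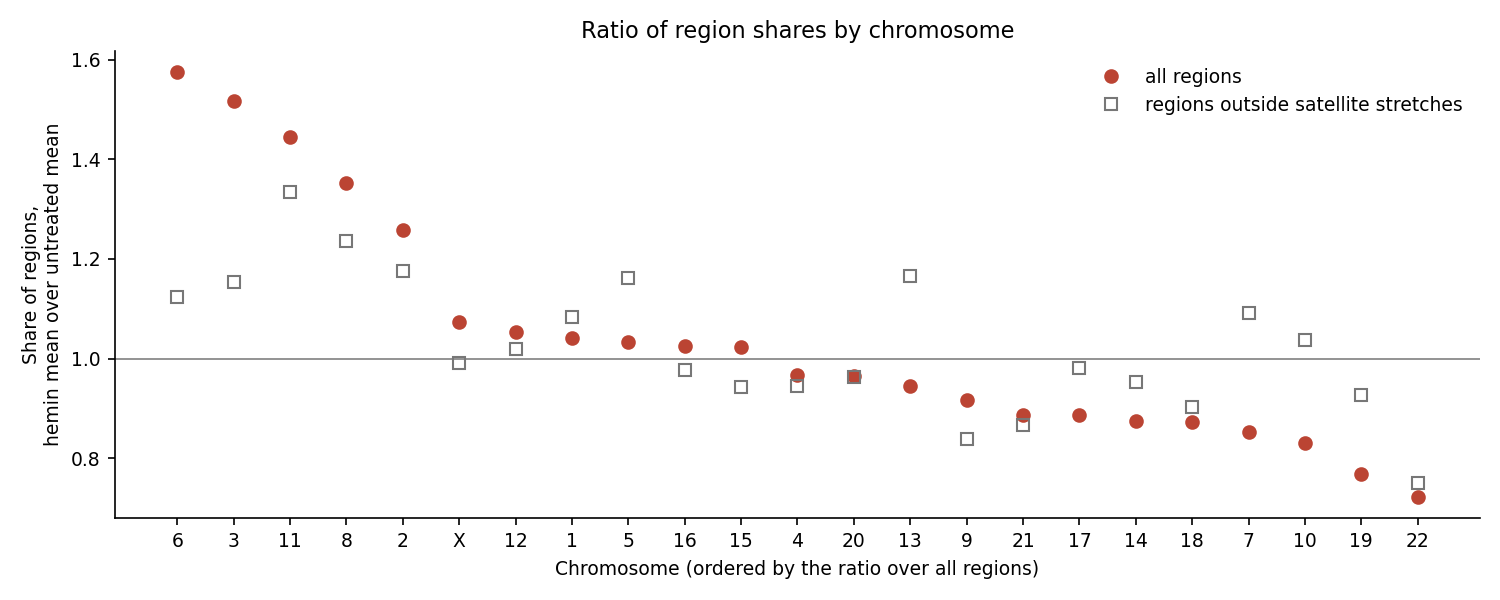
Ratio of the mean share of regions in hemin to untreated libraries for 23 chromosomes, over all regions (filled circles) and outside stretches with the alpha satellite period (open squares); the line marks equal shares. Chromosome 6 stands first over all regions with 1.58 and lies at 1.12 outside satellite stretches, where chromosome 11 is first.

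Outside the array, chromosome 6 held 1509 and 1494 regions in untreated and 1694 and 1851 in hemin libraries. The rest of the short arm, without the histone cluster and the MHC, held 532 and 547 regions against 610 and 683. Its reads were nearly level, at 12480 and 12203 RPM in untreated and 11850 and 12627 in hemin libraries. The long arm held 896 and 876 regions against 979 and 1078, and 17544 and 17181 RPM against 19877 and 19818. In both arms the hemin libraries lay above the untreated ones in regions, and in reads this held for the long arm alone.

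Of the recurring regions outside the array, 90.9% in both untreated and 94.4% in both hemin libraries overlapped no region of the other condition. This share of recurring regions was not taken over the other chromosomes, so it cannot be called particular to chromosome 6. Of all regions outside the array, 8.55% and 9.64% in untreated and 6.97% and 6.75% in hemin libraries overlapped one of the other condition. These were counted whether recurring or not. Over the other non-acrocentric chromosomes the shares were 14.9%, 15.1%, 14.4% and 14.5%. Those chromosomes kept their alpha satellite in this count, so the sets are unlike. In the array of chromosome 6 the shares were 56.5%, 54.6%, 21.3% and 20.5%. Reads per 1 Mb bin, over the 169 bins outside the array, correlated with a Pearson r of 0.97 and 0.94 on the log2 scale between the replicates of a group. Between untreated and hemin libraries r ranged from 0.06 to 0.11. For the number of regions per bin it was 0.83 and 0.80 between replicates and 0.33 to 0.43 between conditions. Each r was taken over bins of the same 2 libraries, and neighbouring bins are not independent. Libraries of a group share their treatment and a similar depth.

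The share of regions lay higher in both hemin than in both untreated libraries in 78 of the 171 bins of 1 Mb on chromosome 6 and lower in 30. Over all 2935 bins of the genome these were 46.0% and 24.3%, against 45.6% and 17.5% on chromosome 6. For the share of reads, 89 bins lay higher (background 52.5%) and 74 lower (background 39.2%). Outside the array the median bin held 8 regions in each untreated and 10 in each hemin library.

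By the quasi-likelihood test of edgeR on regions per bin, 13 of the 169 tested bins of chromosome 6 were called higher in hemin (background 7.21%) and 10 were called lower (background 8.94%), at an adjusted p under 0.05. Because the chromosome was chosen on this contrast, the calls are listed and nothing is read from them. The higher ones included both bins of the array. In its first bin, from 58000001 to 59000000, the regions numbered 195 and 191 in untreated and 392 and 379 in hemin libraries, and in the second 143 and 137 against 599 and 638. The other 11 lay outside the array, the one with the highest log2 fold change (2.21) being the bin from 4000001 to 5000000 with 2 and 4 against 17 and 15 regions. The lowest value belonged to the bin from 158000001 to 159000000, which held 13 and 6 untreated regions and none in either hemin library. Regions and reads did not always go together: the bin from 120000001 to 121000000, called lower, held 18 and 16 regions against 7 and 10, but 108 and 113 RPM against 297 and 274. With scaling by total regions in place of TMM the split was 23 higher and 4 lower. Without hemin replicate 1 the calls were 1 and 0, without hemin replicate 2 they were 0 and 0 (13 higher and 8 lower at an unadjusted p under 0.05), without untreated replicate 1 they were 9 and 5, and without untreated replicate 2 they were 7 and 4.

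**Figure D5:**
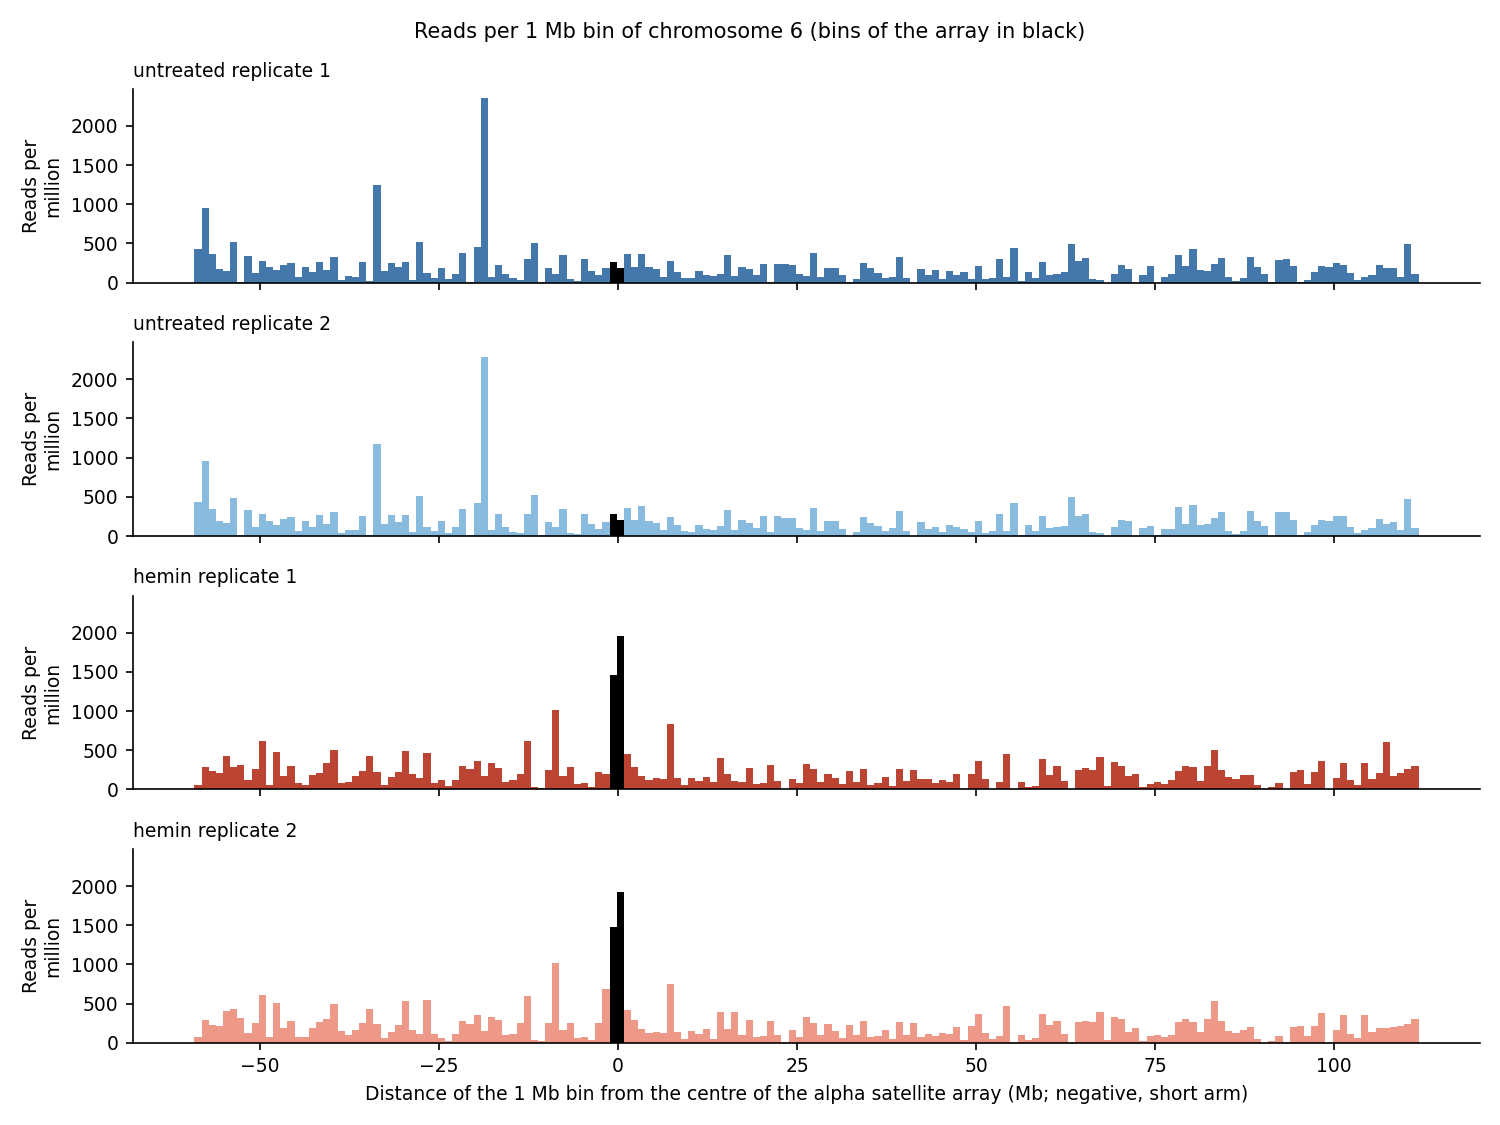
RPM in each 1 Mb bin of chromosome 6 for the 4 libraries, by the distance of the bin from the centre of the alpha satellite array in Mb; the 2 bins of the array are black. The highest bin outside the array held 2352 and 2280 RPM in untreated and a different bin 1007 and 1021 in hemin libraries.

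Outside the array, a single region held most reads of the highest bin in each group. In untreated cells the strongest region of the chromosome lay at chr6:40753714-40753869, 166 kb from LRFN2, a synaptic adhesion gene, in no annotated gene. Its reads numbered 14737 and 15534 without hemin and 0 and 2 with it. In hemin cells the strongest was the short arm region shown above at chr6:50446613-50446714, which ends at an EcoRI site 267 kb from TFAP2D, a gene of the AP-2 transcription factors. It held 4382 and 4678 reads and none in either untreated library. Another region in the hemin libraries, chr6:50697988-50698041, lay 15.5 kb from the same gene with 940 and 989 reads against none.

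On the long arm the leading regions were smaller. The untreated region at chr6:98582393-98582550, shown above, lay in no gene, 252 kb from POU3F2, a POU-domain transcription factor of neural cells. It held 2644 and 2663 reads and none after hemin. The hemin region at chr6:108876896-108876987 lay in an intron of ARMC2, a gene needed for sperm flagella, with 818 and 876 reads and none in untreated cells. A count of 0 allows up to 3 reads per library, which is 0.360 and 0.338 RPM in untreated and 0.560 and 0.528 in hemin libraries, counting error only.

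Strong regions of 1 library alone were also present. Hemin replicate 2 held 2721 reads at chr6:57974627-57974776 that no other library held, and hemin replicate 1 held 2198 at chr6:166710887-166711029. The strongest such regions of the untreated libraries held 601 and 613 reads. Regions of over 100 reads outside the array found in 1 library only numbered 12 and 7 in untreated and 12 and 22 in hemin libraries.

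The histone cluster (25700000 to 28500000) held a similar number of regions but fewer reads after hemin. Its regions numbered 26 and 28 in untreated and 34 and 28 in hemin libraries, so that the groups overlapped. It held 1301 and 1324 RPM in untreated and 257 and 266 in hemin libraries, a ratio of 0.199. A single region made up 64.5% and 65.2% of the untreated reads. This region lay in an intron of SLC17A1, a sodium phosphate cotransporter gene at the edge of the cluster. It held 6997 and 7650 untreated reads and none after hemin. With the strongest region of each group left out, the cluster held 461 and 462 RPM against 190 and 210, a ratio of 0.434.

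Few reads could be given to histone genes themselves. Of 66 genes with a histone symbol on the chromosome, 1 had reads when regions, widened by 2.5 kb on each side, were counted for genes, leaving out regions that met several. This was H2BC15, an H2B gene, with 315 and 290 untreated reads and 2 and 0 hemin reads. When reads went to every gene met, 4 of the 66 had any. By the first count, 482 of the 3182 annotated genes of the chromosome had reads. The strongest hemin region of the cluster, chr6:27238950-27239029, lay in no gene, 8.67 kb from PRSS16, a serine protease gene of the thymus, with 358 and 319 reads. Histone genes are close copies of each other, so reads inside them may be split.

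The MHC (28500000 to 33500000) held more regions and more reads in hemin libraries. Regions numbered 55 and 43 in untreated and 71 and 62 in hemin libraries. It held 1140 and 1147 RPM against 1600 and 1643, a ratio of 1.42, and 1.34 with the strongest region of each group left out. The strongest hemin region was the sequence shown at chr6:32387757-32387939, in an intron of TSBP1-AS1, a non-coding RNA gene of the class II part. It held 1364 and 1570 reads and none in untreated cells. The strongest untreated region, chr6:31972805-31972885, overlapped an exon of STK19, a gene next to the complement genes, with 1088 and 1186 reads and none after hemin. The strongest regions of the groups in the MHC thus lay at different places.

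Few genes of antigen presentation had reads in either condition, and over the whole chromosome 482 of 3182 annotated genes had any. None of the 6 HLA class I genes, 6 butyrophilin genes and 5 antigen processing genes had reads that met 1 gene only. When reads went to every gene met, each of these lists had 1 gene with reads. Of 13 HLA class II genes, 3 had reads, all in hemin libraries. HLA-DQB2 had a single read in 1 of them, and the other 2 had reads in both (background of hemin-only genes 22.2%). HLA-DRA, the alpha chain of the DR molecule, had 85 and 90 hemin reads against 0 and 0, and HLA-DPA1, that of the DP molecule, had 20 and 81 against 0 and 0. Among 7 complement and TNF genes, C2, an early complement component, had 96 and 130 against 0 and 0, and C4B, which has a near-identical copy beside it, had 2 reads in 1 untreated library.

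Reads of 482 of 3182 annotated genes of chromosome 6 were counted, of which 427 were tested. By the same test, 151 were called higher in hemin (35.4%, background 37.7%) and 136 lower (31.9%, background 32.8%). Reads in both hemin libraries and in no untreated one were found for 109 genes (22.6% of those with reads, background 22.2%), and the opposite for 97 (20.1%, background 18.9%). A further 117 genes had reads in each library. The median log2 fold change was 0.27 over the tested genes of chromosome 6 and 0.49 over all tested genes. As the chromosome was chosen on the same contrast, these shares are stated beside the background and no more.

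Genes with reads in the hemin libraries alone were led by TRERF1, a zinc finger regulator of transcription, with 1025 and 1166 reads. The pseudogene MAS1LP1 had 884 and 941, RNF182, a ubiquitin ligase, had 909 and 866, RUNX2, a transcription factor of bone formation, had 861 and 882, and NMBR, the neuromedin B receptor, had 850 and 944. In each of the 5 a single region gave most of the reads of a library, from 464 of 850 in NMBR to all 884 in MAS1LP1 in hemin replicate 1.

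Genes with reads in the untreated libraries alone were led by TBC1D22B, a gene of the TBC domain family, with 2082 and 2046 reads. Its strongest region, chr6:37309213-37309268, lay in an intron and held 2044 and 2046 of these. SNRPC, a protein of the U1 splicing particle, had 1492 and 1553 reads, and L3MBTL3, a reader of methylated histones, had 1474 and 1641, each in 1 region per library. CD2AP, an adaptor of the actin cytoskeleton, had 1401 and 1876 in 6 regions of each library. SAMD5 had 1398 and 1556.

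Among genes with reads in each library, SYNE1 was furthest down. It encodes a giant protein of the nuclear envelope and had 2475 and 2750 untreated and 2 and 2 hemin reads (log2 fold change -9.80). SNRNP48, of the minor spliceosome, had 1611 and 1791 against 20 and 2 (-6.75), SLC17A1 had 6997 and 7650 against 73 and 169 (-5.46), and CARMIL1, an actin regulator next to the histone cluster, had 1899 and 1819 against 43 and 27 (-5.24). ZFAND3 had 620 and 635 against 13 and 2 (-5.87) but a log2 fold change of 0.87 when reads went to every gene met. Counted in that way, CARMIL1 had a log2 fold change of -2.04.

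The genes furthest up were SAMD3, with 2 and 2 untreated and 252 and 297 hemin reads (log2 fold change 7.48), and ADGRB3, an adhesion receptor of neurons, with 2 and 12 against 618 and 665 (6.98). EPB41L2, of the membrane skeleton, had 4 and 8 against 349 and 356 (6.33). PTPRK, a receptor tyrosine phosphatase, had 22 and 25 against 517 and 414 (4.79). The non-coding gene LINC03003, in the MHC, had 67 and 77 against 1224 and 1370 (4.65). In all of these genes the groups did not overlap, which was a condition of their choice.

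Of 15 genes of chromosome 6 with roles in erythroid cells or iron handling, 6 had reads, and of the 5 tested 2 were called higher (background 37.7%) and 1 lower (background 32.8%). The same 2 and 1 had reads in both libraries of 1 condition alone (background 22.2% for hemin and 18.9% for untreated). CCND3, the cyclin that sets the number of divisions of erythroid precursors, had 436 and 477 untreated reads and none after hemin, and was called lower. FOXO3, a transcription factor of late erythroid maturation, had 194 and 229 hemin reads against 0 and 0, and AHI1, a neighbour of MYB, had 93 and 124 against 0 and 0, and both were called higher. BACH2, a relative of the heme-sensing repressor BACH1, had 11 and 0 against 224 and 229, and BMP6, the inducer of hepcidin, had 247 and 231 against 65 and 109, and neither was called. MYB, a regulator of erythroid progenitors, had 4 reads in 1 hemin library alone.

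All 16 long genes on the list had reads, 6 called higher (background 37.7%) and 5 lower (background 32.8%), shares near those of all tested genes. EYS, expressed in photoreceptors, had 252 and 241 RPM in untreated and 340 and 332 in hemin libraries, and LAMA2, a laminin chain of muscle, had 224 and 221 against 298 and 315. PDE10A, a phosphodiesterase, had 43.7 and 46.6 against 205 and 193. KHDRBS2, an RNA-binding protein gene near the centromere, had 471 and 474 against 224 and 238. As a group they held 1895 and 1894 RPM in untreated and 1788 and 1685 in hemin libraries.

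The authors' files of regions found in both replicates, from which reads made wholly of repeats had been removed, also held the array. Chromosome 6 made up 702 of 20608 regions in the untreated and 1508 of 18874 in the hemin file, of which 157 and 835 lay in the array. All array regions were nonetheless marked as repeat over their whole length in the single library files. Without the array, 545 and 673 regions were left, which is 2.64% and 3.57% of each file.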

How the data were processed

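Per the labels and the study's methods, the authors trimmed reads with cutadapt 3.5, aligned read pairs to hg38 with BWA 0.7.17-r1188 mem, dropped unaligned reads with SAMtools 1.14 and wrote each covered region with its count of reads, mates counted singly. No removal of duplicates and no mapping quality filter is stated, so reads in repeats were kept and amplified copies count as reads. The deposited files of each group (regions of both replicates, joined with bedtools 2.29.1, repeats removed) give 1 signal value per region, here used for their regions only.

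RPM were taken over reads of chromosomes 1 to 22 and X other than 13, 14, 15, 21 and 22. Regions by midpoint in 1 Mb bins, and reads by gene (GENCODE 44, regions widened by 2.5 kb and meeting 1 gene, which held 22.2% to 24.6% of all reads), were tested over the genome with the quasi-likelihood test of edgeR 4.0.16 in R 4.3.3, with TMM scaling, a summed count of at least 10 and Benjamini-Hochberg adjustment. DESeq2 1.42.0 was an alternative. The scripts were tested on simulated data. Satellite stretches were found in 2000-base windows of hg38 in which at least 40% of bases matched those 169 to 172 bases away, joined over gaps of up to 20000 bases and kept from 10000 bases on. Arms were divided at 60000000.

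Intervals are 95% Wilson intervals, and with the floor of 3 reads they cover counting error only. With 2 libraries per group, called biological replicates with no word on separate cultures, p-values measure the spread between these libraries. Named genes were taken among genes with a symbol. They were those of gene lists with reads and the 5 with the highest smaller count in either group alone. Added to these were the 5 highest and 5 lowest log2 fold changes among called genes with reads in all libraries. A mean count of at least 100 was required of these, with both libraries of 1 group above both of the other in RPM. The members and lists were chosen with earlier results of these data known. The array and its unit positions, the CENP-B box, the segments without their strongest regions and the regions of 1 library were chosen after their values were seen. The values of 1 gene of the long gene list and the sequence of 1 region are not reported here.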

Additional observations from a re-analysis of the deposited data

How the results depend on the processing

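The ratio of hemin to untreated shares of regions on chromosome 6 (1.58) was 1.57 to 1.59 when any 1 library was left out. It was 1.72 over recurring regions, 1.67 over regions of at least 10 reads, 1.10 over regions of over 100 reads, 2.35 in the repeat-filtered files, 1.56 with libraries thinned to 19548906 reads, 1.52 without acrocentric chromosomes and 1.144 for reads in place of regions. Chosen after seeing the data, leaving out the array gave 1.23 and leaving out all satellite stretches 1.13. For the short arm without the histone cluster and the MHC, but with the array, the ratio was 1.98. Without the array, also chosen after seeing the data, it was 1.25. With the array kept, it was 2.44 over recurring regions, 2.35 over regions of at least 10 reads and 1.97 to 2.00 without 1 library. For the long arm (1.21) recurring regions gave 1.15, regions of at least 10 reads 1.13 and leaving out a library 1.19 to 1.24. For the MHC (1.42) leaving out a library gave 1.27 to 1.61, and for the histone cluster (1.20) 1.05 to 1.35, but over regions of at least 10 reads the histone cluster reversed to 0.857. The cause was not tested.

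Of the bins of chromosome 6, 13 higher and 10 lower by edgeR, DESeq2 called 2 and 0 (11 and 5 at an unadjusted p under 0.05), scaling by total regions gave 23 and 4, and leaving out a library 0 to 9 and 0 to 5. Of the genes, 151 higher and 136 lower, counting every gene met gave 263 and 233, and leaving out a library 124 to 152 and 89 to 152. ZFAND3 reversed to a log2 fold change of 0.87 with every gene met. SNRNP48 and ZFAND3 lost the call without either untreated library. With the replicate number as a block (replicate block), 14 bins were higher and 11 lower, but only 10 and 7 genes, and 18 of the named genes lost the call. Deviations of libraries with the same number correlated at -0.024 over bins and 0.0071 over genes. These values cannot show whether libraries of the same number shared a culture or batch, which the labels do not state.

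The hemin libraries were the shallower ones, and regions of few reads are the least certain at this depth. Reads in the array cannot be assigned to a copy.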
